A study of Homo sapiens with 6 samples.

Results

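The dual-specificity MAPK phosphatases were examined in U251, an established cell line from human glioblastoma, with and without tumor necrosis factor-α (TNF-α). They were taken from the gene expression table by gene symbol, as the 10 genes DUSP1, DUSP2, DUSP4, DUSP5, DUSP6, DUSP7, DUSP8, DUSP10, DUSP14 and DUSP16 of the 58735 genes listed, and each symbol was found. The NC group received sterile deionized water (n = 3) and the TNF-α group received recombinant human TNF-α at 10 ng/mL for 24 h (n = 3). No other agent or genetic change is named for either group, both groups come from 1 cell line, and the 3 samples of a group are described as independent biological replicates. Gene expression was measured by RNA-seq and is given as FPKM, fragments scaled to exonic length and library size, a unit in which levels can be compared between genes.

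These phosphatases switch off mitogen-activated protein kinases (MAPKs) by removing phosphate from both the threonine and the tyrosine of the activation loop. The MAPKs ERK, JNK and p38 are activated by growth factors, cytokines and stress, and many of the phosphatase genes are themselves induced by the kinases their products inactivate, which forms a negative feedback. Family members differ in place and preference. DUSP1, DUSP2, DUSP4 and DUSP5 are inducible nuclear enzymes, DUSP6 and DUSP7 are cytoplasmic and prefer ERK, and DUSP8, DUSP10 and DUSP16 prefer JNK and p38. DUSP14 is a small atypical member that lacks the MAPK-binding domain of the others. TNF-α signals through its receptors to NF-κB and to JNK, p38 and ERK.

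The depth was similar in all libraries, with 31992167 to 37897044 reads in genes. The NF-κB targets used to check the response rose in the TNF-α group, with log2 fold changes of 4.12 for the chemokine gene CXCL8 (adjusted p = 0.000996), 2.79 for the NF-κB inhibitor gene NFKBIA (adjusted p = 0.00415) and 2.70 for the ubiquitin-editing enzyme gene TNFAIP3 (adjusted p = 0.0421, limma). The TNFAIP3 call was lost in 11 of 20 alternatives and the NFKBIA call in 3 (adjusted p up to 0.276 and 0.0615). TNF-α replicates 2 and 3 stood apart from the other 4 libraries. Genes with over 8 kb of exonic sequence took 16.6% and 17.9% of their reads against 28.8% to 29.1% elsewhere, and ribosomal protein genes took 8.11% and 6.96% against 2.90% to 3.22%. Relative to the NC mean, these libraries had 3592 and 2663 genes at a log2 distance of 1 or more, against 152 in TNF-α replicate 1. No NC library resembled them, and by the labels all TNF-α libraries had the same dose and time. When replicates 2 and 3 are compared with NC, this difference and the treatment cannot be told apart, and its cause was not tested. Results are also given with TNF-α replicate 1 alone or left out. Of the glial markers VIM, NES, GFAP, SOX2, S100B and CD44, only S100B was at or near 0 (0 in 4 of 6 libraries), and GFAP was low with a mean of 8.24 FPKM in NC and 2.19 FPKM in TNF-α. VIM was the most abundant, with means of 343 and 753 FPKM, and SOX2 went the other way, with means of 62.0 and 36.9 FPKM. The summed glial markers ranged from 568 to 618 FPKM in NC and from 675 to 1205 FPKM in TNF-α, which mainly follows VIM. The leukocyte markers PTPRC and CD3E were at 0 in all 6 libraries, and the summed leukocyte, endothelial and epithelial markers did not exceed 1.58 FPKM in any library. The leukocyte sum was almost all CD14. It measured 0.660 to 0.825 FPKM in NC and 0.528, 1.55 and 1.20 FPKM in TNF-α replicates 1 to 3. The summed neuronal markers ranged from 4.45 to 4.82 FPKM in NC and from 1.96 to 4.50 FPKM in TNF-α. The part of these differences in the results below was not tested.

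The region before the transcription start is shown for DUSP1 and DUSP8, whose promoters held the cAMP response element (CRE), a site bound by CREB and ATF factors that lie downstream of p38, JNK and ERK. RefSeq promoters (GRCh38.p14) were matched by symbol for 8 of the 10 genes, with 9 windows in all because DUSP10 has a pair of starts. DUSP4 and DUSP5 had no entry. Both genes shown were chosen after their values were seen, as the members with the smallest unadjusted p that had an entry. The 250 bases before the start are given 5′ to 3′ on the minus strand, at chr5:172771196-172771445 for DUSP1 and at chr11:1572272-1572521 for DUSP8. Capitals mark the CRE and, in DUSP1, the TATA box.
DUSP1: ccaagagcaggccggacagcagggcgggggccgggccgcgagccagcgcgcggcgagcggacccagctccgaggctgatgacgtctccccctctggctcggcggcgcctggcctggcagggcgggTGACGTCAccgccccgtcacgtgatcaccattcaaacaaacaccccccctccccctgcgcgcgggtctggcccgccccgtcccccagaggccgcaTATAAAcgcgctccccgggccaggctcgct
DUSP8: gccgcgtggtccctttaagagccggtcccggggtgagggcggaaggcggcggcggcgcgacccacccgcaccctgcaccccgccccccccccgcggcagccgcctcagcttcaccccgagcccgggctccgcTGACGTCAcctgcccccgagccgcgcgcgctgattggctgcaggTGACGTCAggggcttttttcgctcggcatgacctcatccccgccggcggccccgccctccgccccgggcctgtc
The CRE, searched as TGACGTCA, which reads the same on both strands, began at base -125 of DUSP1 and at bases -118 and -74 of DUSP8, counted back from the start. It was found in none of the other windows of the family and in 1.65% of all 35116 promoters of the same length. TATAAA, searched on both strands, stood at base -30 of DUSP1 alone in the family and in 10.7% of all promoters. The E-box CACGTG, which reads the same on both strands, was found in DUSP1 and DUSP2 and in 6.34% of all promoters, and its letters do not overlap the CRE in DUSP1. The AP-1 motif TGANTCA, the κB motif, the CArG box and the ETS motif CCGGAAGT, each searched on both strands, were found in no window of the family and in 6.57%, 5.21%, 1.16% and 3.42% of all promoters. The RefSeq start of DUSP8 lies at 1572271, upstream of the gene end of 1571920 in the annotation that the expression table follows. The start of DUSP16, at 12562863, also lies upstream of its gene end, at 12562383. The windows at the DUSP6 start (89352501) and at a DUSP10 start (221736900) lie inside the annotated genes, which end at 89353271 and 221742176.

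To determine whether TNF-α changed the expression of the phosphatases, log2(FPKM + 1) was compared between the groups with limma over all 12136 genes that reached an FPKM of 1 in 3 or more libraries. Fold changes refer to FPKM + 1, so those of low genes come out too small, and adjusted p-values are Benjamini-Hochberg values over all genes tested, with a threshold of 0.05. DUSP5 rose, and it was the 1 member called among the 9 tested, against 1.01% of all genes tested called and 0.717% called higher. No member was called lower. With limma-voom on the recovered reads the count was also 1, but that test used the library sizes inside the FPKM and so kept its scaling. On the TPM scale 0 members were called. An unadjusted p under 0.05 was reached by 5 members, DUSP1, DUSP5, DUSP6 and DUSP8 with higher and DUSP10 with lower values in TNF-α, against 24.2% of all genes. The groups did not overlap in 6 of the 9 tested members, against 30.1% of all genes. The median log2 fold change of the tested members was 0.21, beside 0.043 for all genes. An exact permutation test of 3 against 3 libraries cannot give a p below 0.1, which every member whose groups did not overlap reached.

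**Figure D1:**
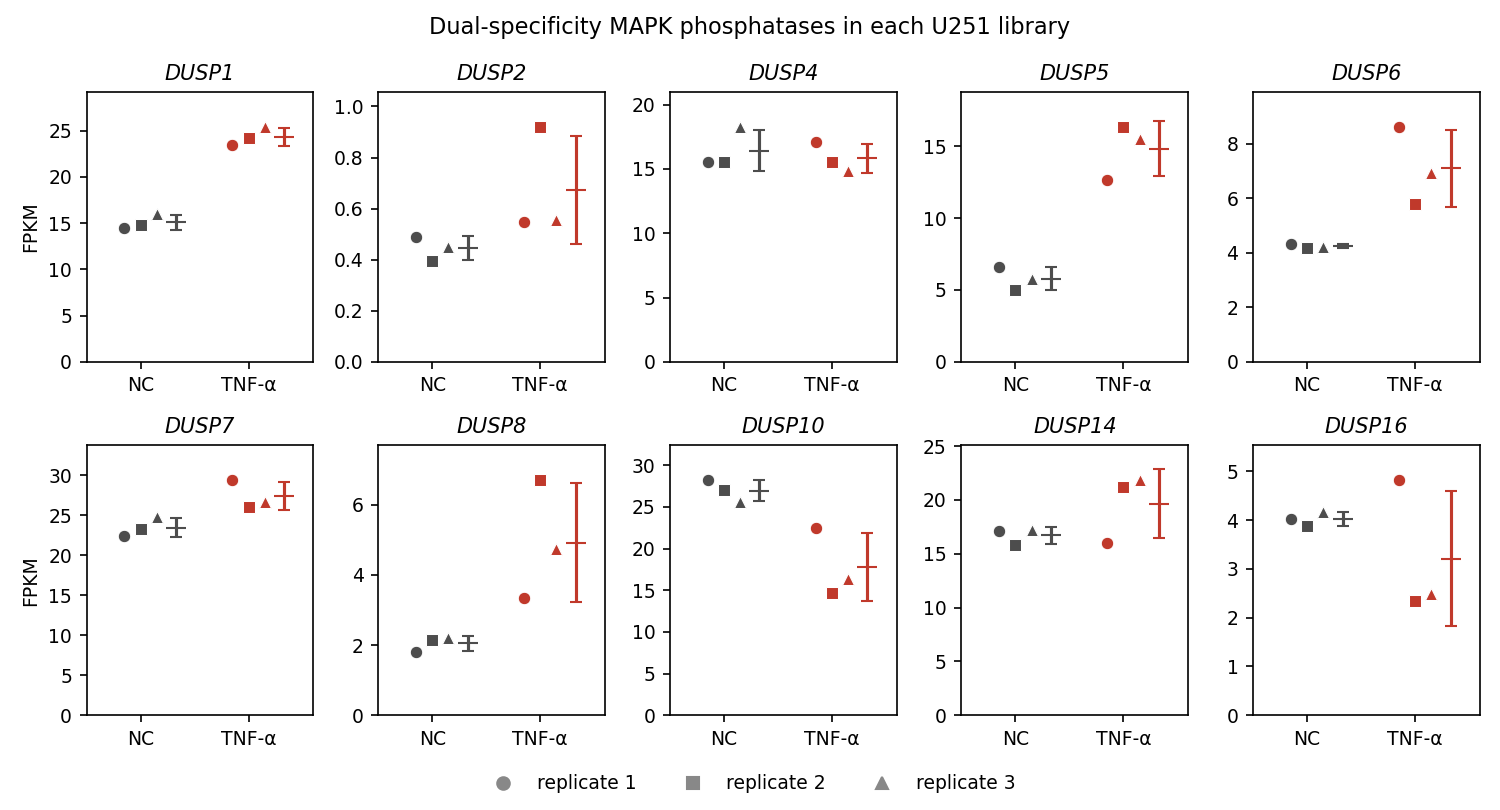
FPKM of the 10 phosphatases in each library, with NC libraries in grey and TNF-α libraries in red, symbols for replicates 1 to 3, and a horizontal mark with bars for the mean ± SD (n = 3). Each panel has its own axis from 0. DUSP1, DUSP2, DUSP5, DUSP6, DUSP7 and DUSP8 lie above every NC library in all 3 TNF-α libraries and DUSP10 lies below. The groups did not overlap in 30.1% of all genes tested. FPKM in TNF-α replicates 2 and 3 is higher for the same share of reads. In DUSP14 and DUSP16 TNF-α replicate 1 sits apart from replicates 2 and 3.

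Among the nuclear inducible phosphatases, DUSP5 rose, DUSP1 was higher in every TNF-α library without passing the threshold, and DUSP4 overlapped between the groups. DUSP5 (ENSG00000138166, chromosome 10, 110497838 to 110511544, plus strand) encodes an ERK-selective enzyme that also holds ERK in the nucleus. It measured 6.62, 5.00 and 5.75 FPKM in NC replicates 1 to 3 and 12.7, 16.3 and 15.5 FPKM in TNF-α replicates 1 to 3, from 429 to 626 and from 985 to 1106 reads. All TNF-α libraries lay above all NC libraries, and replicate 1 was the lowest of the 3. The mean went from 5.79 ± 0.812 to 14.8 ± 1.92 FPKM (SD, n = 3 each), a 2.56-fold difference. The log2 fold change was 1.22 (SE 0.16, 95% confidence interval 0.84 to 1.60, adjusted p = 0.0312 by limma), and 2.05% of the tested genes had a higher one. TNF-α replicate 1 by itself stood at 2.19 times the NC mean, and replicates 2 and 3 at 2.82 and 2.68 times. The call was lost when NC replicate 1, 2 or 3 was left out (adjusted p = 0.152, 0.233 and 0.240), when TNF-α replicate 2 or 3 was left out (0.124 and 0.206), with no filter on low values (0.0781), on the TPM scale (0.178) and with a correction for GC content and length (0.0867, with the log2 fold change at 0.73). The fold change stayed above 0 in all 20 alternatives, from 0.73 to 1.35. The pseudogene DUSP5P1 had 95, 99 and 102 reads in NC and 115, 32 and 46 reads in TNF-α replicates 1 to 3, against 626, 429 and 483 and 1064, 1106 and 985 for DUSP5, and how reads shared by both were counted was not stated.

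DUSP1 (ENSG00000120129, chromosome 5, 172768090 to 172771195, minus strand) encodes the founding member of the family, an immediate early gene product that acts on p38, JNK and ERK and is known for restraining inflammatory signaling. It measured 14.5, 14.8 and 16.0 FPKM in NC and 23.4, 24.2 and 25.4 FPKM in TNF-α. On the FPKM scale the groups were clearly separate and each was narrow, with means of 15.1 ± 0.814 and 24.3 ± 0.972 FPKM (SD, n = 3 each). On that scale TNF-α replicate 1 did not stand apart from replicates 2 and 3 for this gene. DUSP1 had 1521, 1267 and 1244 reads in TNF-α replicates 1 to 3, of 34726418, 37414474 and 31992167 reads in genes. The log2 fold change was 0.66 (SE 0.12, 95% confidence interval 0.36 to 0.95), and the adjusted p of 0.0900 (limma) missed the threshold. Corrected for GC content and length it was 0.18 (adjusted p = 0.508), and on the TPM scale 0.18 (adjusted p = 0.496), where the median of all genes lay at -0.42.

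DUSP4 (ENSG00000120875, chromosome 8, 29333064 to 29350668, minus strand), which encodes a nuclear phosphatase of ERK and JNK, measured 15.5, 15.5 and 18.2 FPKM in NC and 17.1, 15.5 and 14.9 FPKM in TNF-α. The groups overlapped, with a log2 fold change of -0.05 (95% confidence interval -0.37 to 0.28, adjusted p = 0.781 by limma), so that a difference of the size seen for DUSP5 lay outside the interval. DUSP2 (ENSG00000158050, chromosome 2, 96143166 to 96145440, minus strand), a phosphatase best known from activated lymphocytes, was the lowest of the family. It measured 0.487, 0.395 and 0.451 FPKM in NC and 0.548, 0.919 and 0.554 FPKM in TNF-α, from 25 to 34 and from 26 to 46 reads. The groups did not overlap, but TNF-α replicates 1 and 3 lay only slightly above NC. DUSP2 fell under the filter on low values and was not tested. With no filter its log2 fold change was 0.21 (adjusted p = 0.451).

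On the FPKM scale the cytoplasmic phosphatases of ERK were both higher in all 3 TNF-α libraries, without passing the threshold. In reads, DUSP6 had 629 to 723 in NC and 1281, 695 and 778 in TNF-α replicates 1 to 3. DUSP7 had 4310 to 4565 reads in NC and 5326, 3812 and 3662 reads in TNF-α replicates 1 to 3. The reads in genes were 34204083 to 37897044 in NC and 34726418, 37414474 and 31992167 in TNF-α replicates 1 to 3. DUSP6 (ENSG00000139318, chromosome 12, 89347232 to 89353271, minus strand) is a classical ERK feedback gene. It measured 4.32, 4.17 and 4.23 FPKM in NC and 8.61, 5.79 and 6.92 FPKM in TNF-α. The NC libraries were nearly identical, and TNF-α replicate 1 was the highest library, at 2.03 times the NC mean against 1.37 and 1.63 times in replicates 2 and 3. This gave a log2 fold change of 0.61 (SE 0.16, 95% confidence interval 0.24 to 0.99, adjusted p = 0.170 by limma). On the TPM scale it was 0.21 (95% confidence interval -0.61 to 1.04, adjusted p = 0.626 by limma), where the median of all genes lay at -0.42. An annotated gene on the opposite strand, AC024909.2, covers 1875 bases of its exons (40.5%). It had at most 5 reads in any library, against 629 to 1281 for DUSP6, and whether the counting used strand is not given in the sources used here. DUSP7 (ENSG00000164086, chromosome 3, 52048919 to 52056550, minus strand), the close relative of DUSP6, was more abundant, at 22.4, 23.3 and 24.7 FPKM in NC and 29.3, 26.0 and 26.7 FPKM in TNF-α. TNF-α replicate 1 was again the highest. On the FPKM scale the groups did not overlap, but the gap was small. The log2 fold change was 0.21 (SE 0.13, 95% confidence interval -0.09 to 0.52, adjusted p = 0.239 by limma). On the TPM scale, with quantile normalization and with the GC content and length correction, the sign turned, with log2 fold changes of -0.28, -0.055 and -0.067.

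The phosphatases of JNK and p38 did not move as a group. DUSP8 (ENSG00000184545, chromosome 11, 1554044 to 1571920, minus strand), a JNK phosphatase known from brain and heart, measured 1.81, 2.13 and 2.19 FPKM in NC and 3.33, 6.69 and 4.73 FPKM in TNF-α. All TNF-α libraries lay above NC but were widely spread, at 1.63, 3.27 and 2.31 times the NC mean in replicates 1 to 3. This gave a log2 fold change of 0.92 (SE 0.22, 95% confidence interval 0.38 to 1.46, adjusted p = 0.159 by limma), and it was 0.48 with the GC content and length correction. At 64.6% GC, DUSP8 had the most GC-rich exonic sequence of the family. The pseudogene DUSP8P5 had 84 to 125 reads in NC and 118, 40 and 46 in TNF-α, against 302 to 325 and 494 to 801 for DUSP8, and how reads shared by both were counted was not stated.

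DUSP10 (ENSG00000143507, chromosome 1, 221701424 to 221742176, minus strand), which encodes a phosphatase of JNK and p38 found in both nucleus and cytoplasm, had the highest level of the family in NC. It measured 28.2, 27.1 and 25.6 FPKM in NC and 22.4, 14.7 and 16.3 FPKM in TNF-α. Every TNF-α library lay below every NC library, with replicate 1 closest, at 0.832 times the NC mean against 0.544 and 0.606 times. The log2 fold change was -0.59 (SE 0.18, 95% confidence interval -1.03 to -0.15), and the adjusted p of 0.195 (limma) missed the threshold. With TNF-α replicate 1 alone against NC it was -0.25 (adjusted p = 0.151), so its size differed with the libraries used. DUSP10 had the lowest GC content of the family, 45.6%. Its log2 fold change was -0.77 with the GC content and length correction (adjusted p = 0.139 by limma). DUSP16 (ENSG00000111266, chromosome 12, 12474210 to 12562383, minus strand), a JNK phosphatase that shuttles between nucleus and cytoplasm, measured 4.03, 3.87 and 4.16 FPKM in NC and 4.81, 2.33 and 2.49 FPKM in TNF-α. Replicate 1 lay above NC and replicates 2 and 3 below, so the TNF-α libraries did not share a direction. Over the group the log2 fold change was -0.30 (SE 0.23, 95% confidence interval -0.86 to 0.26, adjusted p = 0.332 by limma).

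The atypical member DUSP14 (ENSG00000276023, chromosome 17, 37489831 to 37513501, plus strand), known for dampening T cell receptor and TAK1 signaling, measured 17.1, 15.8 and 17.2 FPKM in NC and 16.0, 21.2 and 21.8 FPKM in TNF-α. TNF-α replicate 1 lay within the NC range and replicates 2 and 3 above it. The log2 fold change was 0.21 (SE 0.16, 95% confidence interval -0.18 to 0.60, adjusted p = 0.330 by limma), and with TNF-α replicate 1 alone it was -0.06.

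The calls were then examined for the library they rested on. With TNF-α replicate 1 alone against the 3 NC libraries, which assumes that this library varies as the NC libraries do, 3 of the 9 tested members were called, against 6.03% of all genes. The log2 fold changes were 0.87 for DUSP6 (adjusted p = 0.0027), 1.02 for DUSP5 (adjusted p = 0.0106) and 0.61 for DUSP1 (adjusted p = 0.0131), all by limma. Without TNF-α replicate 1, 7 of the 9 were called, but so were 79.4% of all genes, and the members' share was close to that background. On the FPKM scale DUSP1, DUSP5, DUSP6, DUSP7 and DUSP8 were higher in TNF-α in both subsets, and DUSP10 was lower. The subsets share the 3 NC libraries, so they are not independent. DUSP14 and DUSP16 were called without replicate 1, at 0.34 and -0.56, while replicate 1 alone gave -0.06 and 0.21.

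**Figure D2:**
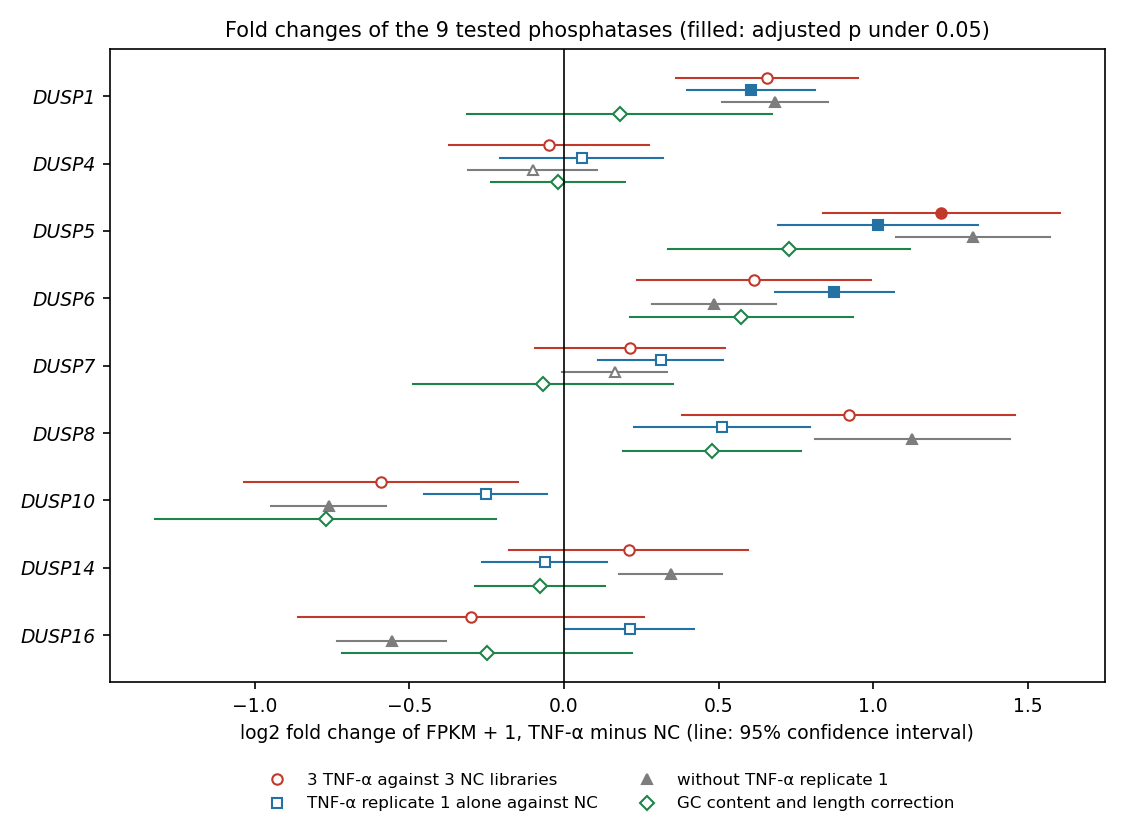
Log2 fold change of FPKM + 1 (TNF-α minus NC) of the 9 tested phosphatases with 95% confidence intervals, for all 6 libraries, for TNF-α replicate 1 alone against NC, without TNF-α replicate 1, and with the GC content and length correction; filled symbols have an adjusted p under 0.05. DUSP5 lies above 0 in all 4 versions, from 0.73 to 1.32, DUSP10 lies below 0 in all 4, and DUSP14 and DUSP16 lie on opposite sides of 0 with and without TNF-α replicate 1.

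The order of the levels differed between the groups. By mean FPKM in NC the order was DUSP10, DUSP7, DUSP14, DUSP4, DUSP1, DUSP5, DUSP6, DUSP16, DUSP8 and DUSP2. Neighbours overlapped in their ranges from DUSP14 to DUSP4 and from DUSP4 to DUSP1, and the other neighbours were separate. In TNF-α the order was DUSP7, DUSP1, DUSP14, DUSP10, DUSP4, DUSP5, DUSP6, DUSP8, DUSP16 and DUSP2, with DUSP14 to DUSP5 and DUSP6 to DUSP16 forming runs of neighbours whose ranges overlapped. In TNF-α replicate 1, DUSP10 at 22.4 FPKM still lay above DUSP14 and DUSP4 (16.0 and 17.1 FPKM), and the overlap came from replicates 2 and 3, the libraries that stood apart.

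The composition of the family's transcripts was compared as each gene's share of the summed FPKM of the 10 genes, a description with no test. The sum was 115 ± 3.29 FPKM in NC and 136 ± 2.31 FPKM in TNF-α (SD, n = 3 each). This sum rests on the FPKM scale, and on the TPM scale DUSP10, DUSP4, DUSP7 and DUSP14 had log2 fold changes of -1.11, -0.54, -0.28 and -0.28. The shares within a library do not depend on that scale. DUSP10 took 24.5%, 24.2% and 21.6% of it in NC and 16.2%, 11.0% and 12.1% in TNF-α. DUSP5 took 5.77%, 4.47% and 4.85% in NC and 9.16%, 12.2% and 11.5% in TNF-α. Neither gene's shares overlapped between the groups. The 4 nuclear phosphatases together went from 32.8% ± 1.20 to 41.0% ± 1.94 of the sum, and the 3 JNK and p38 phosphatases from 28.7% ± 1.52 to 19.1% ± 2.63. Members of a class did not all move with its total. The mean share of DUSP4 went from 14.2% to 11.7%. That of DUSP8 went from 1.78% to 3.64%, while DUSP10 went from 23.4% to 13.1% and DUSP16 from 3.49% to 2.36%. DUSP6 and DUSP7 together took 24.0% and 25.4%. DUSP14 took a mean of 14.5% in both groups, but against 14.1% to 14.9% in single NC libraries, TNF-α replicate 1 was lower at 11.5% and replicates 2 and 3 were higher at 15.8% and 16.1%. Because shares of 1 sum move against each other, a larger share of DUSP5 and DUSP1 lowers the others.

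**Figure D3:**
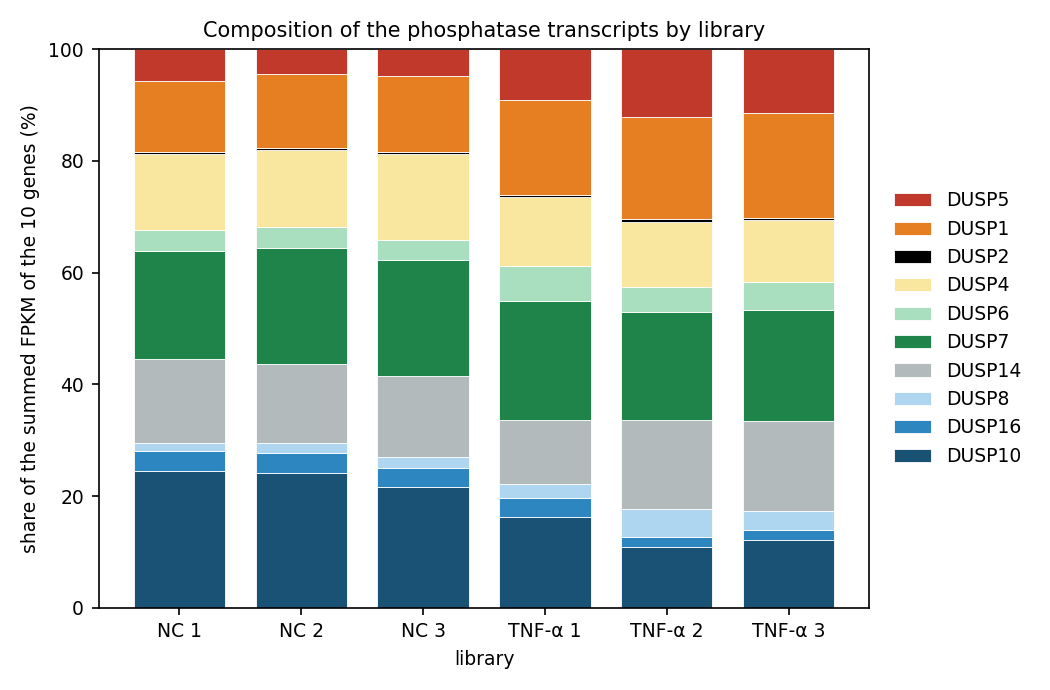
Share of the summed FPKM of the 10 phosphatases taken by each gene (%) in the 6 libraries, stacked from the JNK and p38 phosphatases at the bottom to the nuclear phosphatases at the top. The DUSP10 segment is 21.6% to 24.5% in the NC libraries and 11.0% to 16.2% in the TNF-α libraries, and the DUSP5 segment is 4.47% to 5.77% and 9.16% to 12.2%.

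Other genes of the MAPK pathway were described from 4 lists for context. Of 15 other dual-specificity phosphatases 7 passed the filter on low values and none was called, with 3 at an unadjusted p under 0.05, beside 1.01% of all genes called and 24.2% at that p, and a median log2 fold change of 0.34. The largest differences were those of STYXL1, a catalytically inactive relative, with a mean of 13.5 FPKM in NC and 32.3 FPKM in TNF-α (log2 fold change 1.05, adjusted p = 0.195 by limma), and of DUSP12, with 20.2 and 28.1 FPKM (0.44, adjusted p = 0.195, -0.043 on the TPM scale). STYXL1 measured 13.8 FPKM in TNF-α replicate 1 but 44.7 and 38.5 FPKM in replicates 2 and 3, so its difference lay in those libraries. Of 8 tyrosine and serine/threonine phosphatases that also act on MAPKs 6 passed the filter, none was called and 1 had an unadjusted p under 0.05, against the same 1.01% and 24.2% of all genes. The median was 0.24, and the largest differences were those of PPM1D (4.50 and 3.14 FPKM, -0.43, adjusted p = 0.195) and PPM1A (3.60 and 2.75 FPKM, -0.31, adjusted p = 0.207). PPM1A measured 3.58 FPKM in TNF-α replicate 1, within the NC range of 3.52 to 3.65, and 2.45 and 2.22 FPKM in replicates 2 and 3, and its log2 fold change was 0.15 with the GC content and length correction. The limma-voom test on the recovered reads also called none in these 2 lists.

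Of 28 MAP kinases and upstream kinases 23 passed the filter and none was called by limma or by limma-voom, with 9 at an unadjusted p under 0.05, against 24.2% of all genes, and a median log2 fold change of -0.04. The largest differences were those of MAP2K3, an activator of p38, and MAP2K2, an activator of ERK. MAP2K3 measured 17.1, 17.7 and 18.2 FPKM in NC and 29.8, 70.8 and 58.2 FPKM in TNF-α (log2 fold change 1.44, adjusted p = 0.133 by limma). All 3 TNF-α libraries lay above NC, with replicates 2 and 3 well above replicate 1. MAP2K2 had means of 42.9 FPKM in NC and 92.5 FPKM in TNF-α (0.96, adjusted p = 0.195), and TNF-α replicate 1, at 45.1 FPKM, lay within the NC range.

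Genes known as outputs of ERK signaling were a list of 22, of which 19 passed the filter. By the threshold, 3 of them rose and none fell, against 0.717% of all genes called higher. An unadjusted p under 0.05 was reached by 10, some higher and some lower in TNF-α, against 24.2% of all genes. The log2 fold change was positive for 13 of the 19, with a median of 0.35. IER3, an immediate early gene that is also a known NF-κB target, measured 4.90, 7.04 and 6.18 FPKM in NC and 38.3, 85.8 and 70.9 FPKM in TNF-α (log2 fold change 3.16, adjusted p = 0.0128 by limma). HBEGF, which encodes a ligand of the EGF receptor, measured 7.23, 7.08 and 8.06 FPKM in NC and 32.8, 46.1 and 41.0 FPKM in TNF-α (2.27, adjusted p = 0.00407). FOSL1, which encodes an AP-1 subunit, went from a mean of 168 FPKM to 356 FPKM (1.08, adjusted p = 0.0498). All 3 were well above NC in every TNF-α library, and TNF-α replicate 1 was the lowest of its group for each. The FOSL1 call was lost in 15 of 20 alternatives, and its log2 fold change was 0.47 with the GC content and length correction (adjusted p = 0.206) and 0.37 with quantile normalization (adjusted p = 0.339). Leaving out NC replicate 1, 2 or 3 ended the calls of IER3 (adjusted p = 0.112, 0.111 and 0.125) and of HBEGF (0.0615, 0.0605 and 0.0537), and leaving out TNF-α replicate 3 ended that of IER3 (0.109). No test compared any list with other genes.

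**Figure D4:**
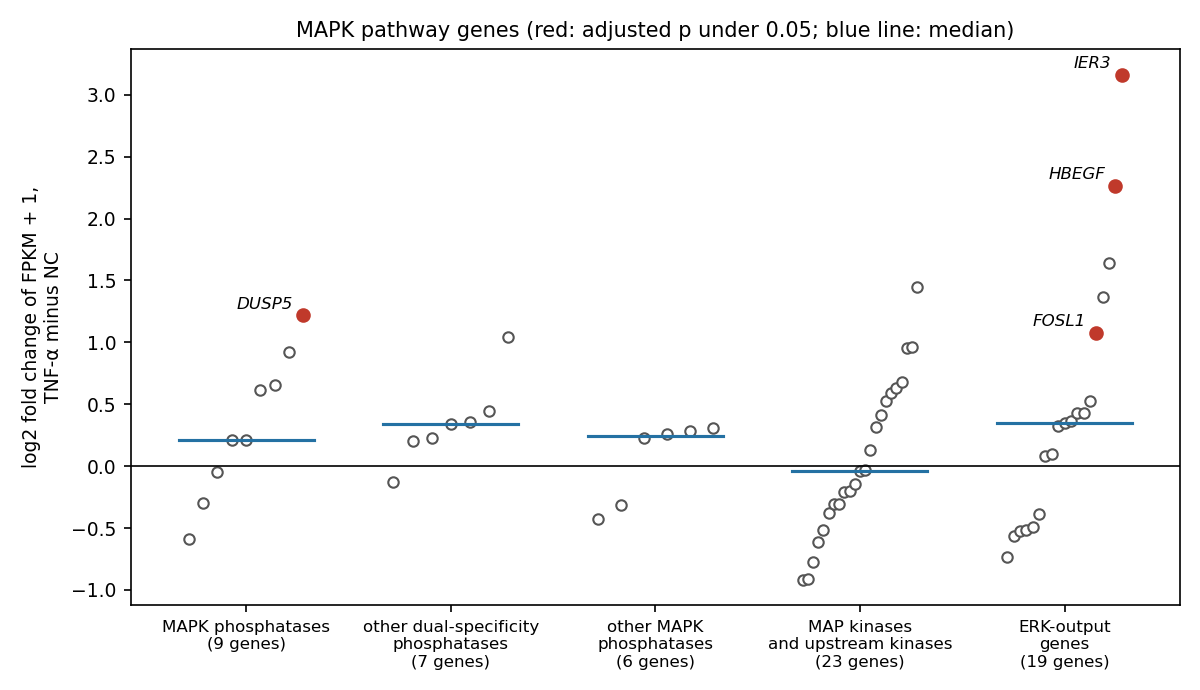
Log2 fold change of FPKM + 1 (TNF-α minus NC) of the tested MAPK phosphatases and of 4 lists of MAPK pathway genes, with 1 point per gene, genes of a list spread by rank, the list median as a blue line and genes with an adjusted p under 0.05 in red. DUSP5 (1.22) is the called phosphatase, and IER3 (3.16), HBEGF (2.27) and FOSL1 (1.08) are called among the outputs of ERK, while the 3 other lists hold no called gene.

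The genes whose pattern was most like that of DUSP5 were sought by Pearson's r of log2(FPKM + 1) over the 6 libraries, a description in which all points share libraries and the difference between the groups. They were MLKL, which encodes the effector of necroptosis (r = 0.997), BTN3A2, a butyrophilin gene (r = 0.996), and APOL3, an apolipoprotein L gene (r = 0.995). An r over 0.99 was reached by 17 tested genes, DUSP5 itself among them. By limma APOL3 was called (log2 fold change 1.76, adjusted p = 0.0279). MLKL (0.79, adjusted p = 0.0623) and BTN3A2 (0.41, adjusted p = 0.195) were not. MLKL measured 5.95, 5.33 and 5.64 FPKM in NC and 9.25, 11.4 and 11.0 FPKM in TNF-α. As for DUSP5, NC replicate 2 was the lowest library and TNF-α replicate 2 the highest.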

How the data were processed

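Total RNA was extracted with TRIzol and poly(A) libraries were made, sequenced and processed by a service company. The submitters' processing notes name HISAT2 2.0.5, StringTie 1.3.3b and featureCounts 1.5.0 among their tools, without their roles. The genome build and the use of strand in counting are not given in the sources used here, but all 58735 genes matched GENCODE on GRCh38 in identifier, name, position and exonic length.

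The authors deposited FPKM per gene and library, with gene lengths, without pooling or log transformation. The table held 6 further per-sample columns that match no sample described here, and they were not used. Reads were recovered from FPKM times gene length, divided by the value of 1 read in that library, and 100.0% of values came out whole (tolerance 0.01 reads). The library size inside the FPKM was 0.925 to 0.959 of the reads in genes, but 0.693 and 0.759 in TNF-α replicates 2 and 3, so FPKM there is higher for the same share of reads. An FPKM of 0.0415 to 0.0618 corresponds to 3 reads on a 2 kb gene, which covers counting error only.

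Groups and replicate numbers were taken from the sample titles. One marker gene is not reported here. Values were tested as log2(FPKM + 1) with limma 3.58.1 in R 4.3.3 (eBayes with an intensity trend, two-sided) on the 12136 genes that reached an FPKM of 1 in 3 or more of the 6 libraries, with Benjamini-Hochberg adjustment over all of them. The script was tested on simulated data. Exact two-sided permutation tests were added for the members. The genes named were all 10 members, from each pathway list the members past the threshold (up to 4) or otherwise the 2 with the largest absolute fold change, 3 response genes, and the 3 genes most like the member with the smallest p. The members and lists were chosen with earlier results of these data known. Alternatives were pseudocounts of 0.1 and 0.5, a filter of FPKM 0.1 or none, TPM, quantile normalization, median centring, eBayes robust or without a trend, limma-voom on recovered reads, corrections for length or for GC content and length (splines with 5 degrees of freedom), a replicate block, leaving out each library, and TNF-α replicate 1 alone. Tables and plots were made with Python 3.11.15, numpy 2.4.6, pandas 2.3.3 and matplotlib 3.10.9.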

Additional observations from a re-analysis of the deposited data

How the results depend on the processing

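The number of all genes past the threshold, 123, was 247 with the GC content and length correction, 732 with TNF-α replicate 1 alone, 58 on the TPM scale, 58 with no filter, 185 with quantile normalization and 24 with the replicate block, and ranged from 10 to 9630 when single libraries were left out. Of the phosphatases, 0 were called with the GC content and length correction, TPM, no filter or the replicate block, 3 with TNF-α replicate 1 alone, and 0 to 7 when single libraries were left out. For each range of called genes given here, before and below, the upper end came from leaving out TNF-α replicate 1. In that setting 79.4% of all genes were called, so the high counts follow that background. The main test held 12136 genes in all. Among them were 7 other dual-specificity phosphatases, 6 other MAPK phosphatases, 23 kinases and 19 outputs of ERK. Replicate numbers did not pair the samples (r of deviations from the group means -0.014, -0.178 and 0.124 for numbers 1 to 3). In the block DUSP5 had an adjusted p of 0.180 (limma). The members' median log2 fold change was -0.019 with the GC content and length correction, 0.31 with TNF-α replicate 1 alone, -0.28 on TPM, 0.24 with the length correction, 0.17 with median centring, -0.029 with quantile normalization, and 0.21 to 0.34 when single libraries were left out. Among the other dual-specificity phosphatases, 1 was called with TNF-α replicate 1 alone and 0 to 6 with single libraries left out, and among the other MAPK phosphatases 0 to 6 with single libraries left out. Among the kinases, 2 were called with the GC content and length correction, 2 with TNF-α replicate 1 alone, 1 with quantile normalization and 0 to 21 with single libraries left out. Among the outputs of ERK, 9 were called with TNF-α replicate 1 alone and 0 to 15 with single libraries left out.

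The direction turned for DUSP4 with TNF-α replicate 1 alone (0.057), with the length correction (0.11) and without NC replicate 3 (0.025, in a range from -0.10 over single libraries left out), for DUSP7 with the GC content and length correction (-0.067), TPM (-0.28) and quantile normalization (-0.055), and for DUSP16 with TNF-α replicate 1 alone (0.21). It turned for DUSP14 with the GC content and length correction (-0.078), TNF-α replicate 1 alone (-0.062), TPM (-0.28), the length correction (-0.16) and quantile normalization (-0.029), for DUSP12 on TPM (-0.043), and for PPM1A with the GC content and length correction (0.15) and the length correction (0.037). The cause was not tested. DUSP1, DUSP5, DUSP6 and DUSP8 stayed above 0 and DUSP10 below 0 in all 20 alternatives. Depth limits DUSP2, which had 25 to 46 reads in each library.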
